A study of Mus musculus with 8 samples.

Results

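In cultured mouse hippocampal neurons, 53 genes had a lower signal after 30 min of bicuculline than before it and a higher signal again at 180 and 300 min. They were chosen by these values. A gene was a member if its mean at 30 min was at least 0.3 below its mean at 0 min on the log2 scale, its mean at 180 min at least 0.4 above that at 30 min, its mean at 300 min at least 0.3 above that at 30 min, and its mean over all 8 arrays above 4.5. The 53 genes are 0.395% of the 13407 genes with a mean above 4.5, out of 19938 genes with a symbol of their own on the array. A further 18 genes met the same thresholds and were left out by name, as the rule for this set states: Meg3, Rian, Malat1, Firre, Snhg11, Luc7l3, Clk4, Taf1d, Ccnl2, Mir100hg, Mir382, Mir487b, Mir539, Mir377, Mir679, Mir6516, Mir665 and Mir341. The name "transient dip" describes the rule, and every member has the pattern because the rule requires it. No test of the dip on these arrays can therefore count as support for it.

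The neurons came from the hippocampus of ICR mice, an outbred strain, at E17.5, late in gestation, and were kept in culture for 10 days. Cultures received 50 µM bicuculline for 0 min (the unstimulated start), 30, 180 or 300 min, and total RNA from 2 biological replicates of each time was read on 8 Affymetrix Mouse Gene ST 1.0 arrays. Bicuculline is an antagonist of the GABA-A receptor, which carries most fast inhibition in the brain, and it makes a cultured network fire more. The labels gave no untreated culture at the later times, so an effect of time alone and an effect of the drug cannot be told apart. They did not say whether the replicates came from separate dissections, so every p-value measures the spread between these arrays, which may be technical. Array medians were 4.84 to 4.88, and replicate arrays correlated at r = 0.985 to 0.990 over all rows. All 8 neuronal markers were above the level that 95% of 1027 olfactory receptor genes, taken as background, stayed under (4.46). All 6 markers of astrocytes and all 6 of fibroblasts and mural cells were above that level too, as were 5 of 6 for oligodendrocytes and their precursors, 4 of 6 for microglia, 2 of 4 for endothelium and 2 of 4 for dividing cells. The summed signal of the neuronal markers was 12.29 to 12.38 at 0 min and 12.38 to 12.43 at 30 min on the log2 scale, and that of the astrocyte markers 9.07 to 9.52 and 9.12 to 9.29. No marker of these lists passed the limma test between 0 and 30 min. In a mixed culture, fewer cells of a type and less RNA per cell cannot be told apart.

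Strong firing of neurons switches on immediate-early genes within minutes, before new protein is made, and a later wave of genes follows. An RNA whose level falls soon after a stimulus must be made more slowly, broken down faster, or both, and only RNAs with a short lifetime can fall far in a short time. Some RNAs of splicing factors and of noncoding host genes of small nucleolar RNAs are known to have short lifetimes, since they are cleared in the nucleus or by nonsense-mediated decay. The arrays measured RNA level and neither synthesis nor decay.

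Promoter sequence was available for 41 of the 53 genes in the RefSeq table of build GRCm38.p6, as 250 bases before and 50 after the annotated start. Sequences of 4 members are given because they hold the motifs that a reader would look for first in genes that respond to neuronal activity, or GCGCATGC, the motif with the highest ratio of its share in members to that in other genes above the floor. They were picked, and GCGCATGC was added to the motifs in capitals, after the motif counts were seen. Capitals mark, on either strand, the cAMP response element TGACGTCA, the E-box CACGTG, the AP-1 element TGANTCA and GCGCATGC, a part of the element of the factor NRF1. Snrnp70 (chr7:45395693-45395992 on the minus strand) has 4 stretches in capitals and Paxbp1 (chr16:91044330-91044629 on the minus strand) has 1, all of them matches of GCGCATGC on one strand or, where the stretch is longer, overlapping matches on both. Among the 41 members searched, Wsb1 (chr11:79254646-79254945 on the minus strand) holds 2 E-boxes and the only full cAMP response element, and Leng8 (chr7:4136806-4137105 on the plus strand) the only AP-1 element.
Snrnp70: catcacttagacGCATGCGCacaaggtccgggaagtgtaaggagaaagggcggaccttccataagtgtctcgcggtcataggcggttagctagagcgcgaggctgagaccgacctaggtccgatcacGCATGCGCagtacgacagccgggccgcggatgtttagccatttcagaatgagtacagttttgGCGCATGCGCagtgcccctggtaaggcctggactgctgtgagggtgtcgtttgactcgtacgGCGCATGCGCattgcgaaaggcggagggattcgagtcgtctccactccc
Paxbp1: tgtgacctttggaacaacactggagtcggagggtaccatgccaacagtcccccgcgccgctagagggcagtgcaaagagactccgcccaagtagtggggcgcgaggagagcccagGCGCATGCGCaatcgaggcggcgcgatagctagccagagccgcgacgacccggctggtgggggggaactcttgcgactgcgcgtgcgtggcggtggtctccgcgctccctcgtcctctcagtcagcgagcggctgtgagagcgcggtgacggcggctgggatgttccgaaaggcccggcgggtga
Wsb1: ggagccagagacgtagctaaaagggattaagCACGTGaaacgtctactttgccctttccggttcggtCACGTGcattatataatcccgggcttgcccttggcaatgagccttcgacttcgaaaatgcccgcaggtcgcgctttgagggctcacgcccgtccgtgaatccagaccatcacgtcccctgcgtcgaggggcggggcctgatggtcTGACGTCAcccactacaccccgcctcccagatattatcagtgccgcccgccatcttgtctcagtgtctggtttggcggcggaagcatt
Leng8: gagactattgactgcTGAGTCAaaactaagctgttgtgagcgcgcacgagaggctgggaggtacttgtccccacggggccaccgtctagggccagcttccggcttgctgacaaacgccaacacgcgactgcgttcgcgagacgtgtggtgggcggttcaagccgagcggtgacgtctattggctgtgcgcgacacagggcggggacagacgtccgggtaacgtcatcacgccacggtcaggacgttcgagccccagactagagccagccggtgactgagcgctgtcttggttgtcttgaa

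Across the 41 promoters, GCGCATGC occurred in 6 (14.6%), against 4.96% of the 10605 promoters of other genes above the signal floor and 2.8% of all 27025 promoters in the table. The 6 genes were Snrnp70, Paxbp1, Rsrp1, Zkscan2, Zcchc7 and Ogt. TGACG, which also lies inside TGACGTCA, occurred in 18 (43.9%, against 30.5% of the other genes and 21% of all promoters), and the GC box GGGCGG in 30 (73.2%, against 63.5% and 35.9%). In percentage points, though not in every case as a ratio, the remaining motifs stood closer to the other genes above the floor. TGACGTCA was found in 2.44% of members, 3.14% of the other genes and 1.88% of all promoters, TGANTCA in 2.44%, 4.79% and 7.93%, CACGTG in 7.32%, 10% and 7.24%, and CCAAT in 39%, 37.6% and 37.9%. TATAAA was found in 9.76%, 7.15% and 14.2%, CCGGAAG in 14.6%, 16.2% and 9.12%, and AAGATGGC in 4.88%, 4.36% and 2.88%. Median GC content was 61.3% in members and 61% in the other genes, with a median of 24 and 20 CG dinucleotides per promoter. All motifs were searched on both strands, and 10 motifs were searched in all. A match describes the letters of the window and is neither a bound site nor a cause.

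Taken over the 53 genes, the dip was modest in size, and its median was close on the 30 min arrays. Gene by gene the arrays spread more than this. The median SD of the 2 arrays at 30 min was 0.0977 in members and 0.0743 in genes above the floor. It was 0.1558 and 0.098 at 180 min, 0.1425 and 0.099 at 300 min, and 0.0748 and 0.0821 at 0 min. The median difference between 30 and 0 min was -0.43, a 1.35-fold lower signal, with members between -1.07 and -0.30, while the median of all genes above the floor was -0.02. Set against each gene's 0 min mean, the median member read -0.43 and -0.45 on the 30 min arrays, 0.20 and 0.05 at 180 min, and 0.28 and 0.17 at 300 min. Both 30 min arrays thus stood lowest, and the later arrays of replicate 1 stood above those of replicate 2. Both 30 min arrays were below both 0 min arrays in 53 of 53 genes, against 2980 of the 13407 genes above the floor. The rule fixes most of this count and of the next. Both 30 min arrays were below all 6 other arrays in 52 of 53, against 4.32% of all genes. The exception was Rsrp1, whose second 180 min array was as low as its 30 min arrays. The median rise from 30 min was 0.54 by 180 min (0.40 to 1.32) and 0.67 by 300 min (0.31 to 1.43). With the thresholds mirrored, a count chosen after the values were seen, 35 genes had a rise at 30 min followed by a fall. No names were left out of that count, and 71 genes had the dip before names were left out.

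**Figure D1:**
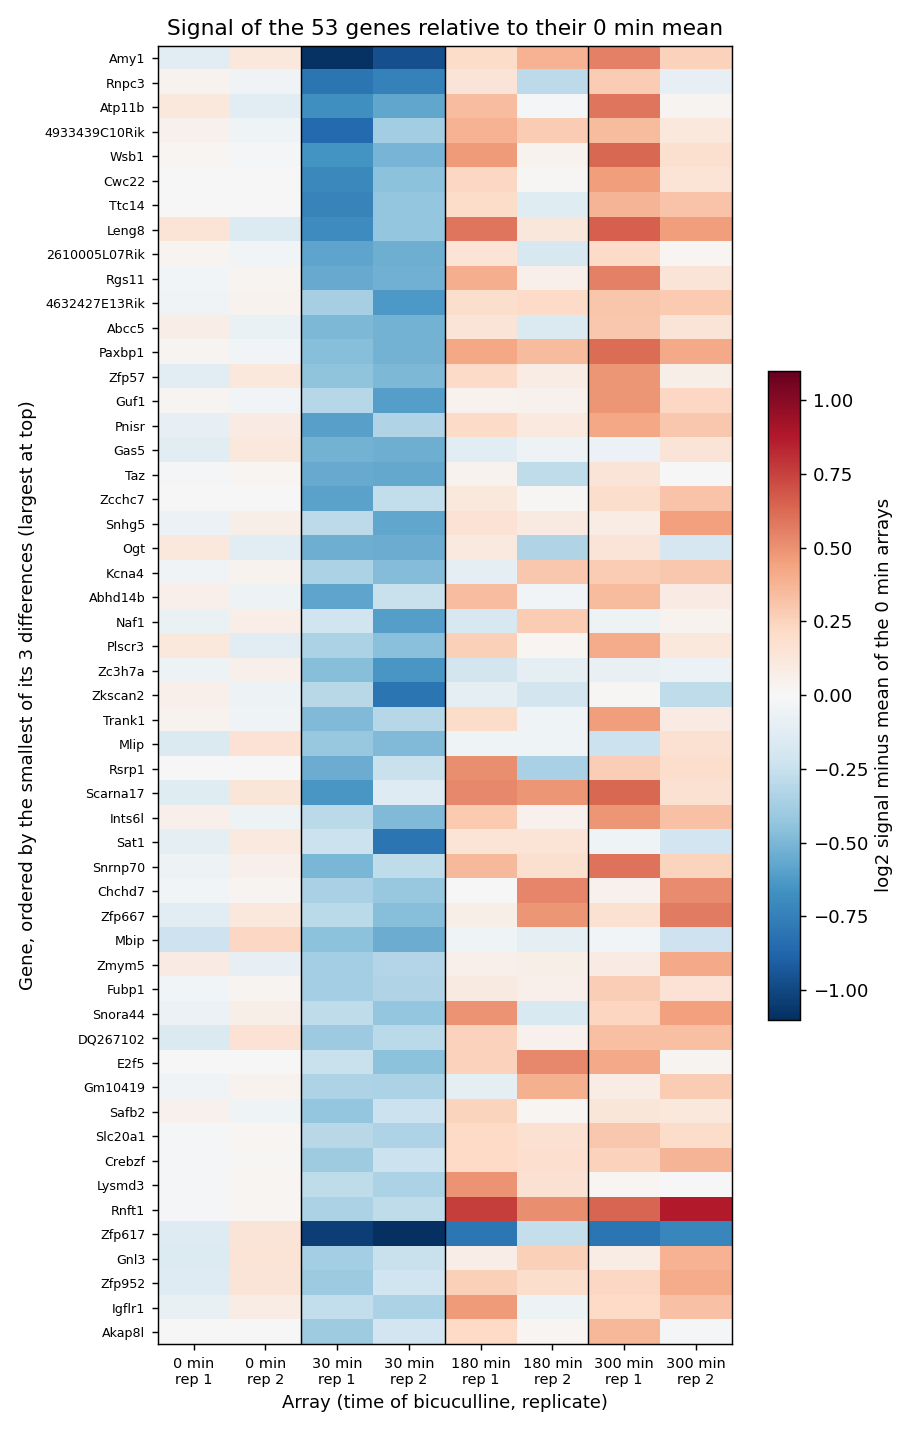
Signal of the 53 genes (rows, ordered by the smallest of the 3 differences that the rule uses) on the 8 arrays (columns, by time and replicate), as the log2 signal minus the gene's mean of the 0 min arrays; red is higher and blue lower. The 30 min columns are blue in every row. Zfp617 has the lowest mean at 180 and 300 min relative to 0 min, although rows such as Rsrp1 and Ogt are deeper blue on the second 180 min array.

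In the limma fit over 19938 genes, 3 genes (0.015%) passed as lower at 30 min than at 0 min (adjusted p under 0.05), and Amy1 and Zfp617 were 2 of these. At 180 against 30 min, 12 members were among the 66 genes called higher (0.331% of all genes). At 300 against 30 min, 30 members were among the 127 called higher (0.637%). These contrasts chose the members, so the counts describe them and carry no weight as tests. The number of members called depended on which arrays were kept. Without the first or second 30 min array, 1 and 4 members were called at 180 min and 5 and 11 at 300 min. Without the first 180 min array 3 were called at 180 min, without either 0 min array 7, and without the first or second 300 min array 4 and 19 were called at 300 min. Without the first 30 min array 104 genes met the rule, 40 of them members.

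Amylase and a minor spliceosome gene headed the members. Amy1 encodes the starch-digesting enzyme of saliva, and its signal was 5.88 and 6.11 at 0 min, 4.90 and 5.03 at 30 min, 6.20 and 6.37 at 180 min, and 6.54 and 6.25 at 300 min. Both 30 min arrays were well below all others, and the 0 min arrays did not reach the later ones. The difference at 30 min was -1.03 ± 0.14 (SE; 2.04-fold lower; limma adjusted p = 0.00417), and from 30 to 300 min it was 1.43 ± 0.14 (2.69-fold higher). The call at 30 min was lost without the second 0 min array (adjusted p = 0.143) and without the first 30 min array (0.130). Rnpc3, a protein of the U11/U12 particle that recognises minor introns, read 5.84 and 5.77 at 0 min, 5.0 and 5.06 at 30 min, 5.95 and 5.51 at 180 min, and 6.08 and 5.71 at 300 min. Its 30 min arrays lay well below the rest, and the 0 min values fell within the range of the later times. The difference at 30 min was -0.77 ± 0.16, or 1.71-fold lower.

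Amy1 and Rnpc3 stand next to each other in the gene order of GRCm38.p6, both on the minus strand, with Rnpc3 upstream. They were the only pair of members that neighboured each other. The gene beyond Amy1, Prmt6, differed by -0.15 at 30 min, and Col11a1, beyond Rnpc3, by 0.02. Of the 106 nearest measured neighbours of all members, 72 were above the signal floor and not members, with a median 30 min difference of -0.04 and a median 180 minus 30 min difference of -0.04. Whether RNA from the Rnpc3 gene binds the Amy1 probes was not tested.

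**Figure D2:**
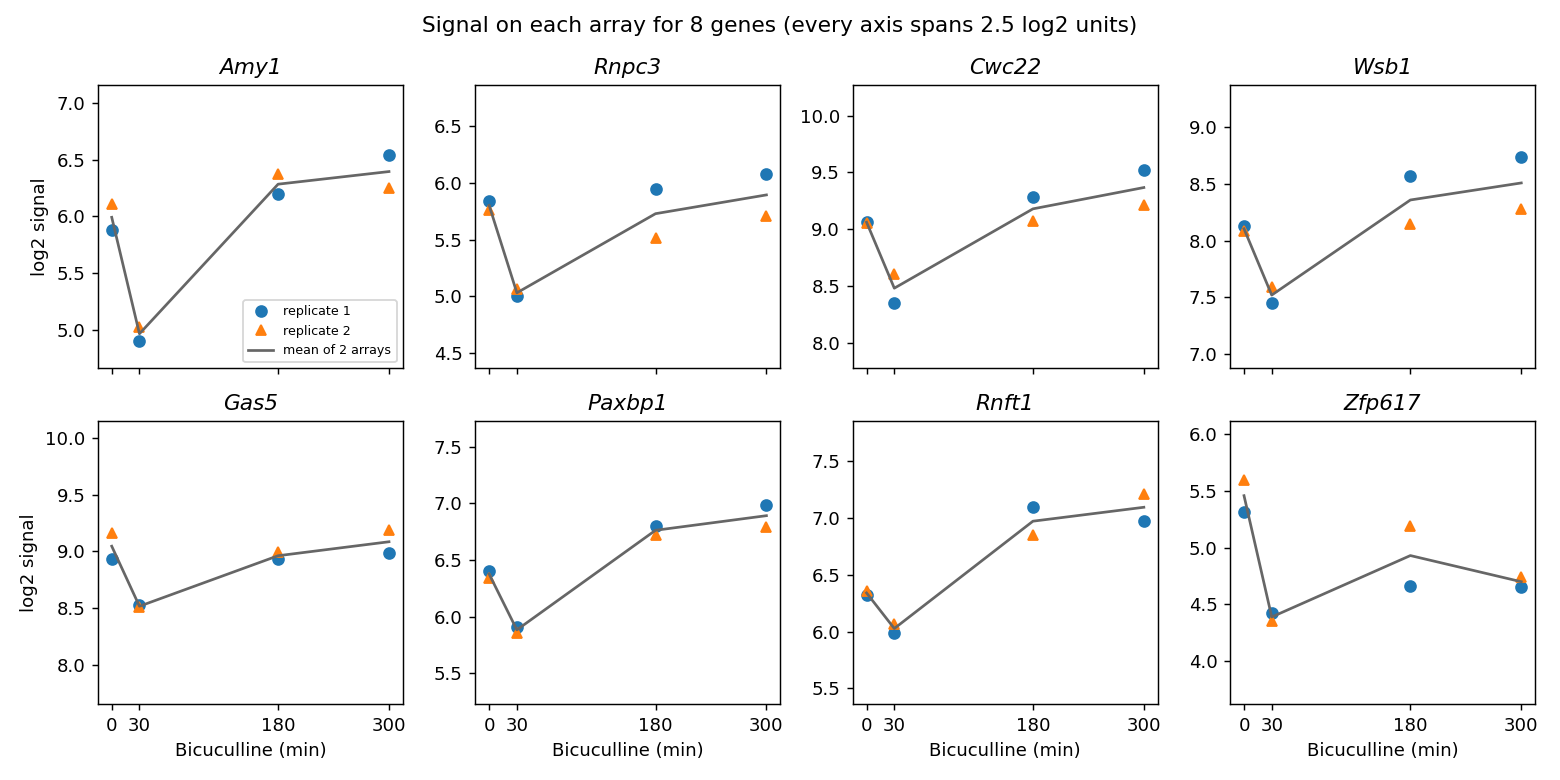
Log2 signal against minutes of bicuculline for 8 genes, 1 point per array (circles replicate 1, triangles replicate 2), with a line through the mean of the 2 arrays; every vertical axis spans 2.5 log2 units. Rnft1 rises above its 0 min level, the plotted Gas5 cluster returns to it (its 3 other clusters, not plotted, end 0.45 to 0.72 above it) and Zfp617 stays below it.

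Some members are known for roles in RNA splicing and processing. The members were grouped by role after they were known, and no enrichment was tested. Cwc22, a spliceosome protein needed to load the exon junction complex, was the brightest coding member at 30 min, with 9.07 and 9.06 at 0 min, 8.35 and 8.61 at 30 min, 9.29 and 9.07 at 180 min, and 9.52 and 9.21 at 300 min. Its 30 min arrays were the lowest, and the 0 min arrays stood level with the second 180 min array. The difference at 30 min was -0.58 ± 0.14, a 1.5-fold lower signal. The array carries 6 more Cwc22 rows with exactly the same values, so copies of this gene cannot be told apart. Snrnp70 encodes a core protein of the U1 particle, which recognises the start of an intron, and read 7.73 and 7.84 at 0 min, 7.28 and 7.51 at 30 min, 8.14 and 7.96 at 180 min, and 8.38 and 8.03 at 300 min. All 4 later arrays were above both 0 min arrays, and its difference was -0.39 ± 0.14 at 30 min and 0.42 ± 0.14 at 300 min against 0 min (limma adjusted p = 0.354). Leng8, a nuclear protein on the list of splicing-related genes, read 7.37 and 7.06 at 0 min, 6.52 and 6.79 at 30 min, 7.81 and 7.34 at 180 min, and 7.87 and 7.68 at 300 min. The 30 min arrays were lowest, and the second 180 min array fell between the 0 min arrays.

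The serine- and arginine-rich proteins Pnisr and Rsrp1 differed by -0.46 ± 0.13 and -0.40 ± 0.21 at 30 min. Rsrp1 had the widest spread, with 7.41 and 7.41 at 0 min, 6.86 and 7.16 at 30 min, 7.92 and 7.05 at 180 min, and 7.68 and 7.61 at 300 min. Its second 180 min array was the only value of any member outside 30 min that reached down among the 30 min values. Among proteins that bind RNA or nuclear structures, the difference at 30 min was -0.35 for Fubp1, known for binding single-stranded DNA at Myc, -0.33 for the scaffold attachment factor Safb2 and -0.30 for the nuclear anchoring protein Akap8l. Ints6l, a relative of the Integrator subunit Ints6, differed by -0.39, and Naf1, which assembles H/ACA small nucleolar particles, by -0.41. Zcchc7, of the machinery that adds short tails to nuclear RNA for decay, differed by -0.43. From 30 to 300 min limma did not call Rsrp1 (0.63), Akap8l (0.48), Safb2 (0.46) or Naf1 (0.41).

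A list of 62 splicing factors and related proteins, 60 of them measured and all above the floor, shows the range around these members. In it 49 of 60 genes were below 0 at 30 min with a median of -0.12. Of the genes above the floor 56% were below 0, with a median of -0.02. The list's count and median include its members, which the rule chose for being low. None of the list was called at 30 min by limma, where 467 genes of all kinds were lower at an unadjusted p under 0.05. From 30 to 300 min 5 of the list were called higher, against 0.637% of all genes. Cwc22, Leng8 and Pnisr, chosen on this contrast, were among them. Akap8l, Cwc22, Leng8, Pnisr and Rsrp1 of the list were members, 8.33% of it, against 0.395% of the genes above the floor. The list was chosen with earlier results of these data known, and no enrichment was tested. Snrnp70 and Rnpc3 are not on the list, nor are the genes left out by name, among them Luc7l3, Clk4 and Ccnl2. Lists of RNA decay and export genes (38 measured), RNA polymerase II and elongation genes (34) and chromatin regulators (51) held no member, with medians of -0.09, -0.05 and -0.03 at 30 min. The 23 immediate-early genes, with 10 called higher at 30 min and a median of 0.63, and the 24 delayed activity-regulated genes, with a median of 0.08, held no member either. Members are 0.395% of all genes above the floor, so lists of this size would hold few or no members at that share.

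Noncoding genes made up 9 of the 53 members (17%), against 3.7% of the 13354 other genes above the floor. They were 5 long noncoding RNAs, 2 small nucleolar RNAs, 1 guide RNA and 1 transcribed pseudogene. Gas5, a noncoding RNA whose introns carry small nucleolar RNAs and which is cleared by nonsense-mediated decay, read 8.93 and 9.16 at 0 min, 8.53 and 8.51 at 30 min, 8.93 and 8.99 at 180 min, and 8.98 and 9.18 at 300 min. Its 30 min arrays agreed closely and lay below all others, and the later arrays overlapped those of 0 min. The difference was -0.53 ± 0.13 at 30 min and 0.04 ± 0.13 at 300 min against 0 min. The later return to the 0 min level held for this cluster alone, since the 3 other Gas5 clusters were 0.72, 0.51 and 0.45 above 0 min at 300 min. Snhg5, another host gene of small nucleolar RNAs, differed by -0.43 ± 0.15 at 30 min. These were 2 of only 4 measured genes from a list of 17 such hosts, whose median at 30 min was -0.27. That median includes the members, which the rule chose for being low. The other measured hosts, Snhg15 and Snhg17, differed by 0.11 and -0.12.

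Small RNAs were also among the members. Snord47, which lies within Gas5 and is not a member, differed by 0.13 at 30 min. The small nucleolar RNA DQ267102 lies within Rian, one of the genes left out by name. DQ267102 differed by -0.35 at 30 min and Rian by -0.75. Snora44 differed by -0.35, and Scarna17, a Cajal body RNA that guides the modification of spliceosomal RNA, by -0.39. Scarna17 read 8.76 and 9.03 at 0 min, 8.25 and 8.75 at 30 min, 9.43 and 9.38 at 180 min, and 9.53 and 9.06 at 300 min, so its second 30 min array nearly reached the first 0 min array. Among the unnamed loci, 4933439C10Rik differed by -0.62 ± 0.15, 2610005L07Rik by -0.56 ± 0.13, 4632427E13Rik by -0.50 ± 0.12 and Gm10419 by -0.34 ± 0.15. Of 8 measured nuclear-retained noncoding RNAs on a separate list, 0 were members, and 5 met the thresholds but were left out by name. All 8 were below 0 at 30 min, against 56% of the genes above the floor, and their median was -0.59. This count and median are largely set by the 5 genes that met the thresholds. From 30 to 180 min 3 of the 8 were below 0, and from 30 to 300 min 2 were.

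Zinc finger genes and other regulators of transcription supplied the lowest member at 30 min relative to 0 min. Zfp617, a zinc finger gene, read 5.32 and 5.60 at 0 min, 4.42 and 4.36 at 30 min, 4.67 and 5.20 at 180 min, and 4.65 and 4.75 at 300 min. Both 30 min arrays were lowest, but none of the later arrays reached the 0 min pair. The difference at 30 min was -1.07 ± 0.16 (2.10-fold lower; limma adjusted p = 0.0128) and that at 300 min against 0 min -0.76 ± 0.16 (adjusted p = 0.0724). Its 30 min mean of 4.39 lay under the background level of 4.46, so its true depth there is not measured. The 30 min call was lost without the second 0 min array (adjusted p = 0.282) and without either 30 min array (0.146 and 0.161), and the 300 min difference passed without either 180 min array (0.0265) and when only genes above 4.5 were tested (0.0421). No other member had a 30 min mean under that level.

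Zfp57, a KRAB zinc finger protein that keeps methylation at imprinted genes, read 7.81 and 8.05 at 0 min, 7.48 and 7.43 at 30 min, 8.14 and 8.0 at 180 min, and 8.41 and 7.99 at 300 min. Its 30 min arrays were the lowest, and the 0 min arrays overlapped the later ones. The difference at 30 min was -0.47 ± 0.15. The differences of the other zinc finger members were -0.55 for Zkscan2, -0.38 for Zfp667, -0.35 for Zmym5, -0.56 for Zc3h7a and -0.31 for Zfp952. The family of 371 Zfp and Zkscan genes as a whole had a median of -0.07 at 30 min, with 249 below 0 and 1, Zfp617, called. Of all 19938 genes, 9929 were below 0 at 30 min. Paxbp1, a protein that links the factors Pax3 and Pax7 to histone methylation, was among the members with the clearest rise, with 6.41 and 6.34 at 0 min, 5.91 and 5.86 at 30 min, 6.80 and 6.72 at 180 min, and 6.99 and 6.80 at 300 min. All 4 later arrays exceeded both 0 min arrays. It was lower by 1.41-fold at 30 min (-0.49 ± 0.12) and differed by 0.52 ± 0.12 at 300 min against 0 min (limma adjusted p = 0.116). Crebzf, a bZIP protein, and E2f5, a repressor of the E2F family, differed by -0.32 and -0.35 at 30 min, and Mbip, a partner of a neuronal MAP kinase kinase kinase, by -0.50.

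Membrane, transport and signalling genes were led by Atp11b, a subunit of a lipid flippase. It read 8.0 and 7.77 at 0 min, 7.21 and 7.31 at 30 min, 8.22 and 7.86 at 180 min, and 8.47 and 7.91 at 300 min. The 30 min arrays lay below all others, and the second replicate of each later time lay between the 0 min arrays while the first lay above them. The difference at 30 min was -0.62 ± 0.17, or 1.54-fold lower. Rgs11, which speeds the shut-off of G protein signals, read 6.28 and 6.33 at 0 min, 5.75 and 5.78 at 30 min, 6.71 and 6.36 at 180 min, and 6.86 and 6.45 at 300 min, with all later arrays above both 0 min arrays, and differed by -0.54 ± 0.15. Kcna4, the A-type potassium channel Kv1.4 of axons, read 6.72 and 6.81 at 0 min, 6.42 and 6.29 at 30 min, 6.66 and 7.06 at 180 min, and 7.05 and 7.06 at 300 min. Its first 180 min array stayed below the 0 min pair, and its 300 min arrays were both above it. It differed by -0.41 ± 0.14 at 30 min and was 1.63-fold higher at 300 than at 30 min. The drug and nucleotide exporter Abcc5 differed by -0.50 at 30 min, the phosphate carrier Slc20a1 by -0.32 and the scramblase family member Plscr3 by -0.41.

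Enzymes and ubiquitin ligase genes held Rnft1, the member furthest above its 0 min level at 300 min. Wsb1, the substrate-binding part of a ubiquitin ligase, read 8.13 and 8.08 at 0 min, 7.45 and 7.59 at 30 min, 8.57 and 8.14 at 180 min, and 8.74 and 8.28 at 300 min. Both 30 min arrays were lowest and all 4 later arrays exceeded the 0 min pair. It differed by -0.58 ± 0.17 at 30 min and 0.40 ± 0.17 at 300 min against 0 min (limma adjusted p = 0.476). Rnft1, a ubiquitin ligase of the endoplasmic reticulum, read 6.32 and 6.36 at 0 min, 5.99 and 6.06 at 30 min, 7.10 and 6.85 at 180 min, and 6.98 and 7.21 at 300 min. Its dip was among the smallest of the set, -0.31 ± 0.13, and all 4 later arrays were clearly above both 0 min arrays. Ogt, which attaches the sugar GlcNAc to nuclear and cytoplasmic proteins, read 8.18 and 7.94 at 0 min, 7.52 and 7.51 at 30 min, 8.17 and 7.72 at 180 min, and 8.20 and 7.87 at 300 min, with a difference of -0.54 ± 0.16 at 30 min and -0.02 at 300 min against 0 min. Its later arrays were split, with replicate 1 near the higher 0 min array and replicate 2 below both.

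Genes of mitochondria and general metabolism were also present. Guf1, a GTPase of mitochondrial translation, differed by -0.46 ± 0.13 at 30 min, and Taz, tafazzin, which remodels the mitochondrial lipid cardiolipin, by -0.56 ± 0.13. Chchd7, a small protein with a mitochondrial import fold, differed by -0.39, the hydrolase-fold gene Abhd14b by -0.41 and Sat1, which acetylates polyamines for their breakdown, by -0.52. The nucleolar GTPase Gnl3 (nucleostemin) differed by -0.31. The remaining members were Ttc14 (-0.58), Trank1 (-0.40), Mlip (-0.45), Lysmd3 (-0.32) and Igflr1 (-0.31). Ttc14 read 6.57 and 6.55 at 0 min, 5.82 and 6.13 at 30 min, 6.76 and 6.42 at 180 min, and 6.93 and 6.87 at 300 min, with its second 180 min array below both 0 min arrays and its 300 min arrays above them.

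After the dip most members stood somewhat above their starting level. This difference is the sum of a fall and a rise that the rule used, so it is given as a description. The rule asked for a fall of at least 0.3 and a rise of at least 0.4 by 180 min. A member with a fall under 0.4 therefore had to be above 0 at 180 min against 0 min. The count at 180 min is thus partly set by the rule and cannot be weighed against other genes. The rise asked for by 300 min was 0.3, so the sign at 300 min was not forced in this way. Against 0 min, the median member differed by 0.15 at 180 min, with 42 of 53 above 0, and by 0.26 at 300 min, with 45 of 53 above 0. Among all genes above the floor the medians were -0.04 and -0.02, and 41.2% and 45.8% were above 0. The medians were lower without a replicate 1 array. Without the first 180 min array the 180 min median was 0.05, and without the first 300 min array the 300 min median was 0.17. At 180 min replicate 1 was higher than replicate 2 in 39 of 53 members (73.6%, against 43% of genes above the floor), and at 300 min in 35 of 53 (66%, against 52%). In 19 members all 4 later arrays were above both 0 min arrays, against 9.78% of all genes and 8.88% of those above the floor.

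By limma, 0 members were called higher at 180 than at 0 min, where 42 of all genes (0.211%) were. At an unadjusted p under 0.05, 7 of 53 members were higher and 1 lower, against 1138 and 1410 of all 19938 genes. At 300 against 0 min 1 member, Rnft1, was called higher, among 45 genes (0.226%). In that contrast 19 of 53 members were higher and 1 lower at an unadjusted p under 0.05, against 848 and 939 of all 19938 genes. Rnft1 differed by 0.76 ± 0.13 (1.69-fold higher; adjusted p = 0.0268), with both 300 min arrays above both 0 min arrays. Its call was lost without either 0 min array (adjusted p = 0.178 and 0.115), either 30 min array (0.0559) or either 300 min array (0.0566 and 0.169). Between 180 and 300 min, limma called 0 genes higher (0%) and 0 lower, with 464 higher and 677 lower at an unadjusted p under 0.05. The median member was 0.12 higher at 300 than at 180 min, with 44 of 53 above 0, against 59.2% of genes above the floor, and the median was 0.05 without the second 180 min array. The rule asks for more at 180 min than at 300 min (0.4 and 0.3), so it does not itself favour a higher 300 min value. Ttc14 and Guf1 were higher at an unadjusted p under 0.05 (0.31 and 0.31) and Lysmd3 was lower (-0.32).

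**Figure D3:**
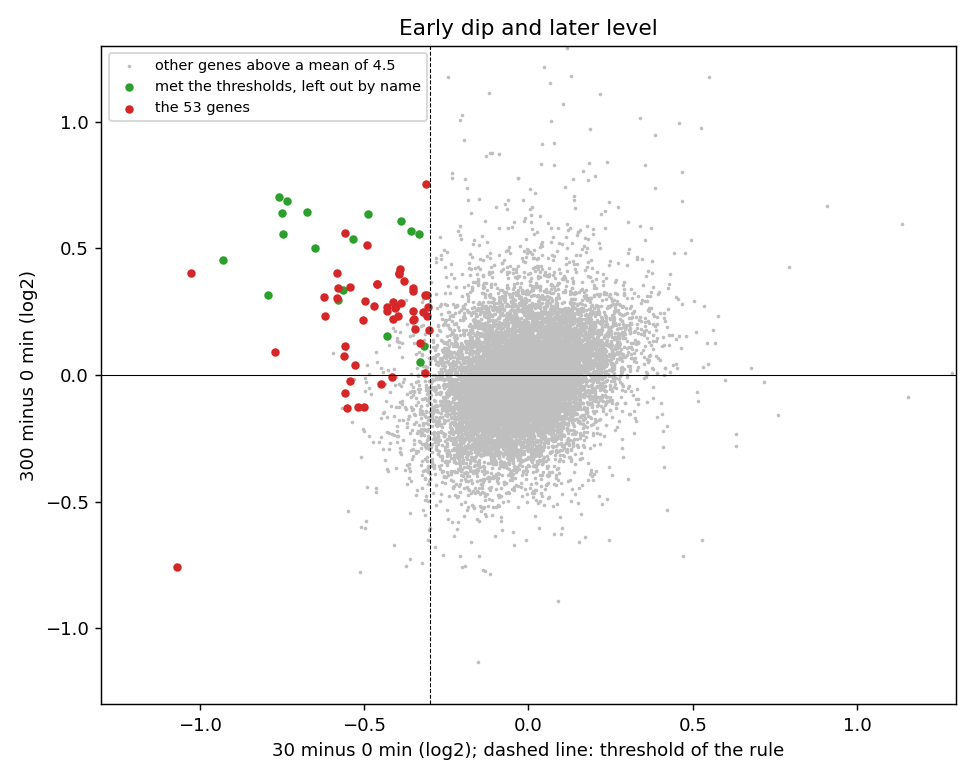
Difference between 300 and 0 min (vertical) against that between 30 and 0 min (horizontal), both in log2, for genes above a mean of 4.5: the 53 genes in red, the 18 left out by name in green and the rest in grey, with 13 genes beyond 1.3 on either axis not shown. The dashed line is the threshold of -0.3 that the members had to meet; 45 of the 53 lie above 0 on the vertical axis, and Zfp617 lies alone at the lower left.

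The rule was also applied to each replicate alone, and the genes it chose were read on the other replicate, as a description. On the replicate 1 arrays alone 77 genes met the rule, 32 of them members. On the replicate 2 arrays these 77 had a median difference of -0.19 from 0 to 30 min, 0.28 from 30 to 180 min and 0.38 from 30 to 300 min. At 30 min 58 of them (75.3%) were lower, against 59.4% of genes above the floor, and 48 (62.3%) were both lower at 30 min and higher again at both later times, against 29.8%. On the replicate 2 arrays alone 176 genes met the rule, 33 of them members, and their medians on the replicate 1 arrays were -0.05, 0.07 and 0.29. Of these 108 (61.4%) were lower at 30 min, against 48.2%, and 79 (44.9%) had the full pattern, against 18.5%. The second set was larger and its values on the other arrays smaller. These shares are descriptions of 4 arrays each and were not tested.

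The same 15 genes met all thresholds on each replicate taken alone, which is 19.5% of the first set and 8.52% of the second; 1.29% and 0.567% of the genes above the floor met them on those arrays. All 15 are members, as they must be, since a gene that meets the thresholds on each replicate meets them on the mean: Amy1, Rnpc3, Atp11b, Wsb1, Cwc22, Snrnp70, Pnisr, Paxbp1, Ints6l, Gas5, Zfp57, Rgs11, Plscr3, 4933439C10Rik and 4632427E13Rik. Leaving out each of the 8 arrays in turn, 15 members met the rule every time, and 12 of these are in the list just given. The other members of that group were Fubp1, Leng8 and Ttc14. Akap8l, Mbip and Mlip met it in the fewest, 4 of 8.

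**Figure D4:**
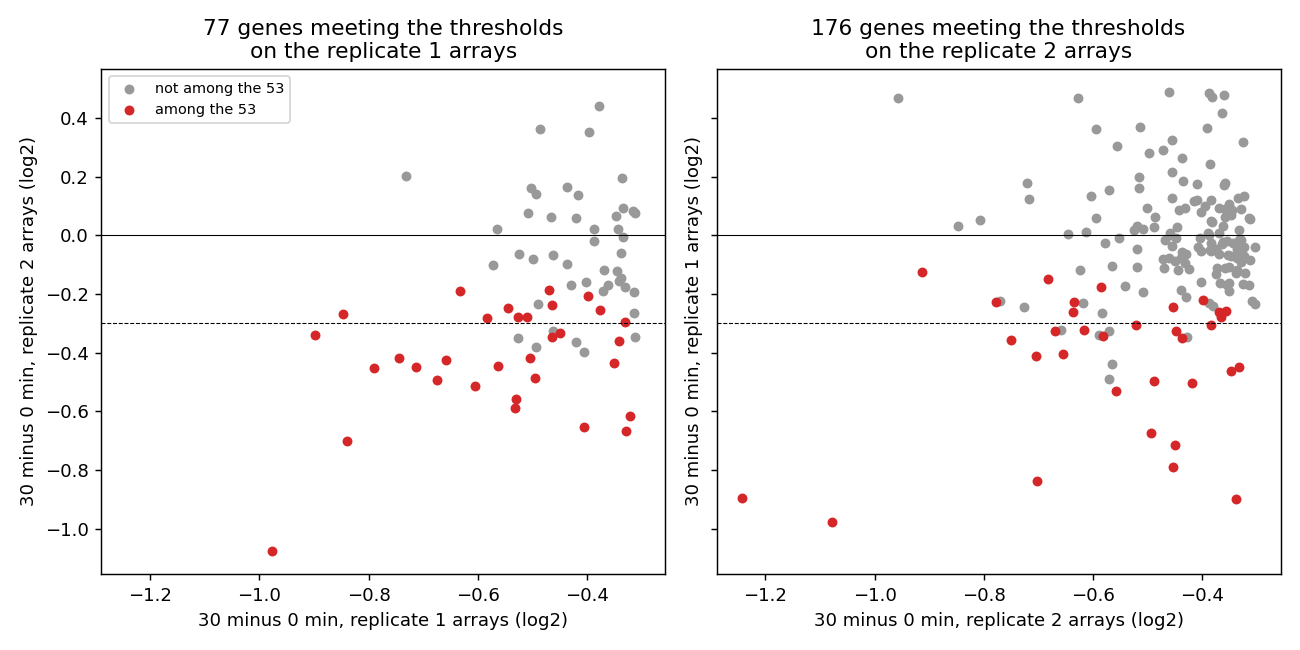
Difference between 30 and 0 min on the arrays that chose the genes (horizontal) and on the other replicate's arrays (vertical), in log2, for the 77 genes chosen on replicate 1 (left) and the 176 chosen on replicate 2 (right); genes among the 53 are red. The solid line is 0 and the dashed line -0.3, and 58 of 77 and 108 of 176 genes lie below 0.

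Values of other probes for the same genes, on the same arrays, are given as a description. For 6 members the array held 8 more transcript clusters with values of their own. All 8 were lower at 30 than at 0 min, with a median of -0.52, and 7 of 8 were higher again at both later times. Of all genes above the floor 56% were lower at 30 min and 24.1% had both features. The differences at 30 min were -0.85 for Cwc22, -0.94, -0.57 and -0.16 for Gas5 (the second in a cluster with a mean of 3.25, under the background level), -0.53 for Trank1, -0.50 for Zcchc7, -0.28 for Gm10419 and -0.03 for Safb2. The Safb2 cluster was thus nearly flat while its brighter one, which made Safb2 a member, was at -0.33. None passed limma over every row at 30 min (lowest adjusted p 0.431, for Cwc22). For 2610005L07Rik, 3 rows shared with other genes differed by -0.28, -0.49 and -0.34, and a row that Igflr1 shares with another gene differed by -0.07. Both members were chosen on rows of their own.

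Brightness and gene span are given for members beside other genes, without a test. The members' mean signal had a median of 6.48 (4.85 to 9.03), against 6.28 for genes above the floor. The median RefSeq span was 15.33 kb, against 21.97 kb for the other genes above the floor, with quartiles of 6.55 and 29.82 kb for members and 8.55 and 56.95 kb for the other genes. Mlip had the longest span, 250.7 kb, and Scarna17 the shortest, 0.06 kb. Members just inside a threshold differed little from genes just outside. At 30 min Akap8l (-0.30), Igflr1 and Zfp952 (both -0.31) were the nearest inside, and Dgkq (-0.29), Cep43 and Rpl30 (both -0.28) the nearest outside. From 30 to 180 min Mlip, Zkscan2 and Zc3h7a (all 0.40) were nearest inside and 4930503L19Rik (0.40), Eif2s3y and Dgat1 (both 0.38) outside. From 30 to 300 min Zfp617 (0.31), Lysmd3 (0.32) and Mbip (0.38) were nearest inside and Il18bp (0.29), Vegfc (0.25) and Mboat1 (0.19) outside. For the floor, Zfp952 (4.85), Zfp617 (4.87) and Abhd14b (4.89) were inside and Hormad1 (4.22), Gm2027 (4.19) and Snord87 (3.83) outside.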

How the data were processed

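The deposited values were 1 log2 signal per transcript cluster and array, as processed by the authors. The log base was taken from the range of the values, and the sources used here give no background correction, normalization, software or genome build. Of 35399 rows, the platform annotation gave 1 gene symbol to 21789, several to 1621 and none to 11989. The cluster with the highest mean stood for a gene, giving 19938 genes. Groups and replicate numbers came from the labels. A mean per time was fitted to all 8 arrays with limma 3.58.1 in R 4.3.3 (lmFit, eBayes, two-sided, Benjamini-Hochberg over 19938 genes, threshold 0.05), and the fit was tested on simulated data; errors are moderated SEs. The gene spans and neighbours came from the RefSeq gene table of GRCm38.p6, whose coordinates are printed for promoters alone because the build of the values is unknown. Same-numbered arrays did not deviate together (correlations -0.09 to 0.09 over the 6 pairs of times), so no replicate block was used.

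The members and the gene lists were chosen with earlier results of these data known. Named genes were the 25 members with the largest dip (the smallest of the 3 differences), the 5 leading unnamed loci, list members, limma calls, the 3 genes on each side of each threshold and the genes left out by name. Sat1, Chchd7, Zfp667, Zmym5, Snora44, Safb2 and Gnl3 fall outside that rule and were named, after their values were seen, to account for every member. Alternatives were other normalizations, floors, thresholds and clusters, each array left out, a replicate block, genes above 4.5 alone and every row tested.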

Additional observations from a re-analysis of the deposited data

How the results depend on the processing

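The 2 arrays per time limited every comparison, and dim members such as Zfp617 lay near background. The number of genes meeting the rule was 19 with thresholds of 0.4, 0.5 and 0.4, 165 with 0.2, 0.3 and 0.2, 176 on replicate 2 arrays alone, and 47 to 104 with each array left out; with quantile normalization 47 of the 53 met it and with median centring 48. With each array left out, limma called 12 to 21 genes at 30 against 0 min (19 with all arrays), 17 to 93 at 180 against 30 min (100), 41 to 182 at 300 against 30 min (163), 15 to 68 at 180 against 0 min (66), 17 to 61 at 300 against 0 min (57) and 0 to 14 at 300 against 180 min (0). With genes above 4.5 alone it called 100 at 180 against 0 min and 96 at 300 against 0 min. With every row tested, which adjusts over more rows, it called 9 at 180 against 30 min, 26 at 300 against 30 min, 1 at 180 against 0 min and 5 at 300 against 0 min, and Amy1, Zfp617 and Rnft1 lost their calls (adjusted p = 0.251, 0.490 and 0.408). Over all genes, same-numbered arrays did not deviate together. With a replicate block limma called 19, 87, 162, 53, 49 and 0 genes in the same order. The difference between 300 and 0 min changed sign for 9 uncalled members. With median centring Lysmd3 was at -0.0153. With each array left out, Gas5 ranged from -0.0753 to 0.15, Mbip from -0.35 to 0.10, Lysmd3 from -0.0092 to 0.0255, Akap8l from -0.0148 to 0.37, Rnpc3 from -0.0917 to 0.28, Zkscan2 from -0.28 to 0.0155, Naf1 from -0.0815 to 0.0677, Mlip from -0.23 to 0.16 and Ogt from -0.18 to 0.14. Single genes were followed for 30 against 0 min and 300 against 0 min alone, a limit set after a first run. The cause of these changes was not tested.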
